A study of Mus musculus with 12 samples.

Results

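Major histocompatibility complex (MHC) class I and interferon-induced genes were described in single-fibre-type libraries of mouse muscle. The set holds 7 genes, namely B2m, H2-K1, H2-D1, H2-T23, Gbp2, Trim30a and Irf1, of the 56162 features in the deposited count and FPKM tables. They were taken by gene name, and they had been named with their values in these libraries known. Their levels and fold changes below are therefore descriptions. Counts of these genes past a threshold, and the names of those a tool called, are printed beside the share of all genes in each comparison, and nothing follows from them.

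MHC class I molecules sit on the surface of nearly all nucleated cells and show peptides from inside the cell to CD8+ T cells. Each has a heavy chain, encoded in the mouse by H2-K1 and H2-D1 among others, and a shared light chain, beta-2-microglobulin, encoded by B2m. Interferons bind receptors that act through JAK kinases and STAT factors, and raise class I genes together with guanylate-binding proteins, TRIM proteins and the transcription factor IRF1. Resting skeletal muscle fibres are known for low class I levels compared with the endothelial and immune cells between them.

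RNA sequencing was done on 12 libraries, 3 in each of 4 groups, from male C57BL/6J mice labelled 8 weeks old. The groups were type I trained, type I untrained, type IIb trained and type IIb untrained myofibres. Trained mice ran on a treadmill at 12 to 16 m/min for 60 min, 5 days a week for 6 weeks, and muscles were taken 3 days after the last run. Untrained mice were the controls. Type I fibres, which are slow and oxidative, came from soleus, and type IIb fibres, which are fast and glycolytic, came from extensor digitorum longus. Both muscles were digested with 2 mg/ml collagenase at 37 °C, soleus for 90 min and extensor digitorum longus for 60 min, so fibre type, muscle and digestion time cannot be told apart. One portion of each fibre was typed by its myosin protein and the remainder was sequenced after full-length cDNA amplification. Whether the stated age is that before or after training, and whether a library holds 1 fibre or several, is unknown here. The labels name no separate animals, so the p-values measure the spread between these libraries, which may be technical.

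Library totals were 8026397 to 24995288 counts, and 3636 to 14428 genes had at least 10 counts. Summed markers of slow fibres were 57674 to 63329 CPM (read counts scaled to the library total) in type I trained and 46334 to 84445 in type I untrained libraries, against 1.16 to 15.9 in type IIb trained and 2.37 to 47.5 in type IIb untrained libraries. Fast IIb markers ran the other way, with 98254 to 196733 CPM in type IIb trained libraries and 100856 to 120348 CPM in type IIb untrained libraries. In type I trained libraries fast IIb markers summed to 306 to 762 CPM, and type I untrained libraries 1, 2 and 3 had 4493, 698 and 639 CPM. In every library the markers of the labelled fibre type were thus the higher ones, and type I untrained library 1 held the most fast IIb RNA among the type I libraries. Genes of other cells varied more. The 13 endothelial markers summed to 1.96 to 42.2 CPM in type I trained libraries, and to 841, 30.1 and 667 CPM in type I untrained libraries 1, 2 and 3. The sums were 0.316, 0.748 and 181 CPM in type IIb trained libraries, and all 13 were at 0 in the 3 type IIb untrained libraries. Fibroblast markers summed to 8876 CPM in type I untrained library 3, against 0.103 to 187 CPM in the other 11 libraries. In bulk RNA, fewer cells of a type and less RNA per cell cannot be told apart.

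The following 30-base stretches lie upstream of the RefSeq starts of the 7 genes (GRCm38.p6, the patch release of the mm10 assembly), read 5′ to 3′ on the strand of each gene. They are shown because the 7 genes are grouped by their response to interferon, and the letters that interferon-activated factors are known to recognise can be read in them.
B2m (chr2:122147537-122147566, plus strand): tataagaacatGAAACTGAAaatgggaaag
H2-K1 (chr17:34000428-34000457, minus strand): GGGATTCCCcatctccacagTTTCACTTCt
H2-D1 (chr17:35262924-35262953, plus strand): GGGATTCCCcatctcctcagTTTCACTTCt
H2-T23 (chr17:36032806-36032835, minus strand): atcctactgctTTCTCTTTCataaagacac
Gbp2 (chr3:142620594-142620623, plus strand): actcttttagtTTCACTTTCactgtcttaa
Trim30a (chr7:104465210-104465239, minus strand): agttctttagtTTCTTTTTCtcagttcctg
Irf1 (chr11:53769913-53769942, plus strand): aacagcctgatTTCCCCGAAatgatgaggc
Capitals mark matches to motifs searched on both strands of the 250 bases before each start. In B2m, H2-T23, Gbp2 and Trim30a they mark GAAANNGAA, from the core of the interferon-stimulated response element, which was found before 7.13% of 32851 RefSeq starts. In H2-K1 and H2-D1 they mark GGGATTCCC, the centre of a kappaB element found before 0.301% of starts, and GAANNGAAA, a variant of the response element found before 6.31% of starts. The capitals of both heavy-chain stretches hold the same letters. The bases between them are the same apart from an a in H2-K1 where H2-D1 has a t. In Irf1 the capitals mark TTCNNNGAA, the gamma-activated site bound by STAT factors, found before 7.02% of starts, and Irf1 also held the kappaB letters nearer its start. A stretch of letters can match more than one of these motifs. The stretches of H2-D1 and H2-T23 lie wholly within annotated exons of GENCODE M21, and 22 of the 30 bases of Gbp2 do. The motifs were chosen with these sequences in view, and a match is a description and not a site of binding.

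B2m (ENSMUSG00000060802, mm10 chromosome 2, 122147686 to 122153083, plus strand) had the most counts of the set, 20939 in all, and a count in 11 of 12 libraries, as H2-K1 did. Its level, in CPM on library sizes scaled by the trimmed mean of M values (TMM), was 67.8, 86.5 and 58.5 in type I trained libraries 1, 2 and 3, against 175, 32.2 and 324 in type I untrained libraries. Type IIb trained libraries had 75.6, 0 and 59.1 CPM, against 93.9, 40.2 and 0.0922 CPM in type IIb untrained libraries. Type I untrained libraries 1 and 3 stood above all others, type IIb trained library 2 had no B2m count, and the groups overlapped in every comparison. Pooled over libraries, the level was 3.43-fold lower in trained than in untrained type I fibres, and 1.23-fold higher in trained than in untrained type IIb fibres. Type I untrained library 3, the deepest library, held 12202 of the 15576 B2m counts of its group. On the length-scaled FPKM of the authors B2m was the highest of the 7 genes in 9 of 12 libraries.

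H2-K1 and H2-D1 encode the classical class I heavy chains that present peptides to T cells. H2-K1 (ENSMUSG00000061232, chromosome 17, 33996017 to 34000347, minus strand) had 37.6, 4.12 and 9.26 CPM in type I trained libraries, against 82.9, 0.287 and 122 CPM in type I untrained libraries. Its type IIb trained libraries had 51.4, 71.2 and 73.1 CPM, against 0, 5.72 and 17.1 CPM in untrained libraries. All 3 type IIb trained libraries lay above all 3 untrained ones, while in type I fibres one untrained library fell below every trained library. The pooled level was 8.44-fold higher in trained than in untrained type IIb fibres and 6.28-fold lower in trained than in untrained type I fibres. Between fibre types, the type I level of H2-K1 was 11.1-fold above the type IIb level in untrained mice, with overlapping libraries, and 4.76-fold below it in trained mice, without overlap. Type IIb trained libraries 1 and 2 held their H2-K1 with 0.316 and 0.748 CPM of endothelial markers, 0 and 0.374 CPM of macrophage markers, and 0.422 and 0.872 CPM of class II genes. The same libraries had 0.105 and 19.6 CPM of fibroblast markers, with 1 and 7 of 10 markers detected, and 28.4 and 232 CPM of mural markers, from 1 of 9 markers in each. The part of other cells in the H2-K1 level was not tested.

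H2-D1 (ENSMUSG00000073411, chromosome 17, 35262730 to 35267499, plus strand) had 0.498, 1.06 and 3.83 CPM in type I trained libraries, against 94.7, 24.1 and 109 CPM in type I untrained libraries. In type IIb trained libraries it had 0, 55.9 and 53.0 CPM, against 0, 0.483 and 1.66 CPM in untrained libraries. Every type I untrained library was above every type I trained and every type IIb untrained library, whereas type IIb trained library 1 was at 0 beside the 2 others above 50 CPM. Pooled, H2-D1 was 34.6-fold lower in trained than in untrained type I fibres, and 52.0-fold higher in trained than in untrained type IIb fibres. In untrained mice the type I level was 119-fold above the type IIb level, and in trained mice the type I level was 15.1-fold below the type IIb level.

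H2-T23 encodes the non-classical class I molecule Qa-1, which shows signal peptides of other class I chains to inhibitory receptors of natural killer cells. H2-T23 (ENSMUSG00000067212, chromosome 17, 36029773 to 36032855, minus strand) had 0, 1 and 0 counts in type I trained libraries, against 399, 0 and 519 counts in type I untrained libraries. Counts were 591, 0 and 163 in type IIb trained libraries and 0 in type IIb untrained libraries. It was therefore carried by 4 libraries, with 23.9 and 13.8 CPM in type I untrained libraries 1 and 3 and 76.4 and 11.8 CPM in type IIb trained libraries 1 and 3, and the groups overlapped in all comparisons. Against the untrained type IIb group, taken at 3 counts over the group, H2-T23 was at least 301-fold higher in trained type IIb fibres. Trained type I fibres, with 1 count, were 524-fold below untrained ones, with a 95% counting interval of 93.8 to 20726.

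The 3 heavy-chain genes share sequence with relatives. Of the 50-base windows of the longest transcript, 8.11% in H2-K1, 14.3% in H2-D1 and 16.0% in H2-T23 also occur in other genes, mostly H2-Q and H2-T genes or each other, and none of B2m does. How reads that fit several genes were counted is unknown, so levels of these genes are uncertain where they are low.

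**Figure D1:**
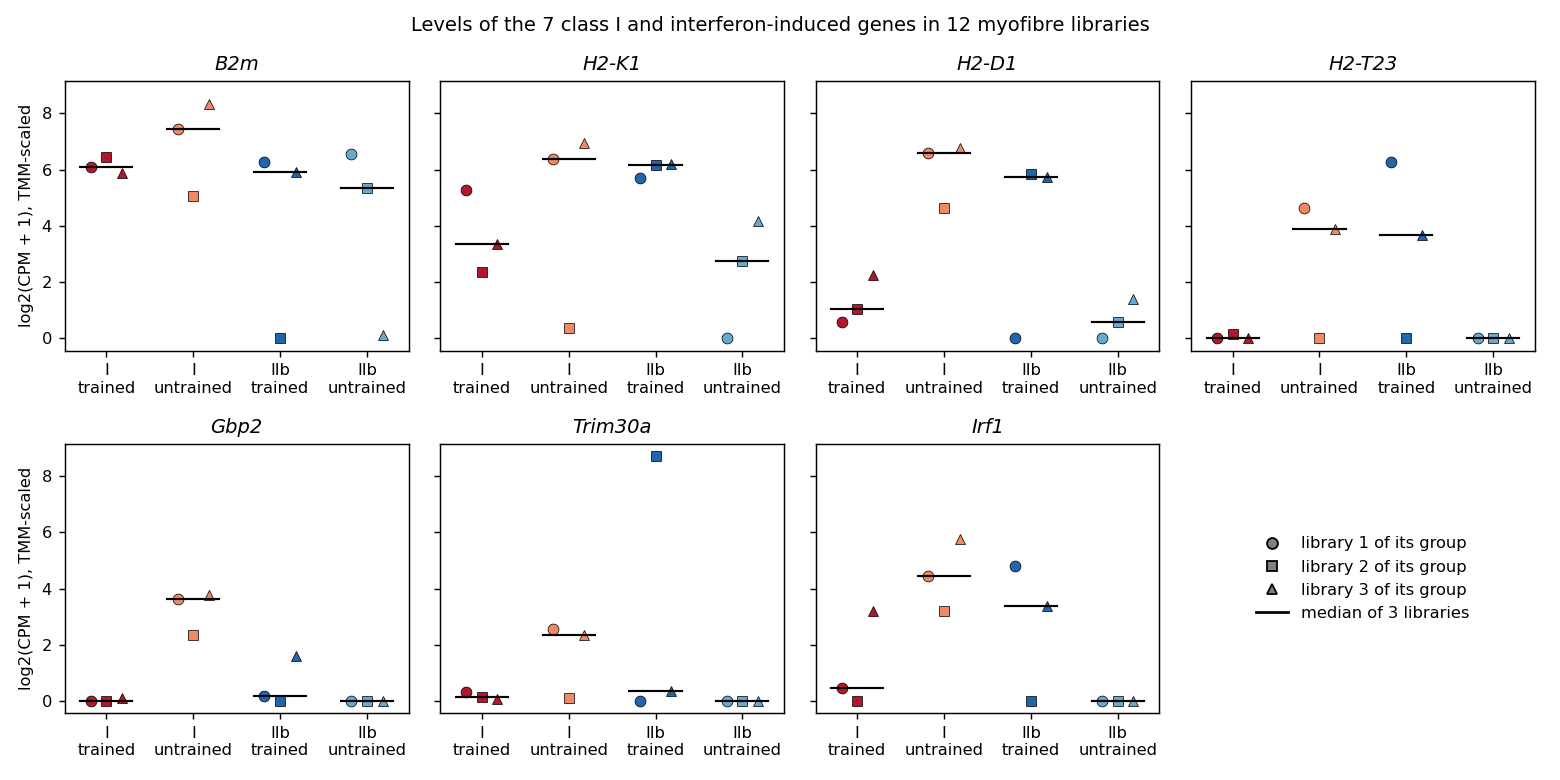
Level of each gene in the 12 libraries, as log2(CPM + 1) on TMM-scaled library sizes, in type I trained, type I untrained, type IIb trained and type IIb untrained fibres. Symbols mark libraries 1 to 3 of a group, and bars mark the median of 3. H2-D1 and Gbp2 have all type I untrained libraries above all type I trained ones, and H2-K1 has all type IIb trained libraries above all untrained ones.

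Irf1 encodes a transcription factor that is induced by interferon-gamma and activates class I, Gbp and antigen-processing genes. Irf1 (ENSMUSG00000018899, chromosome 11, 53770014 to 53778374, plus strand) had 0.373, 0 and 8.33 CPM in type I trained libraries, against 21.1, 8.19 and 53.8 CPM in type I untrained libraries. Type IIb trained libraries had 27.0, 0 and 9.38 CPM of Irf1, and type IIb untrained libraries had no count. Trained and untrained type I libraries overlapped narrowly, at 8.33 CPM in trained library 3 and 8.19 CPM in untrained library 2. Pooled, Irf1 was 7.49-fold lower in trained than in untrained type I fibres and at least 136-fold higher in trained than in untrained type IIb fibres. Among untrained mice, the type I level of Irf1 was at least 395-fold above that of type IIb fibres. Its exons overlap Gm17334 over 3.40% of their length, and the library kit does not mark strand.

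Gbp2 encodes a guanylate-binding protein, an interferon-induced GTPase that acts against intracellular pathogens. Gbp2 (ENSMUSG00000028270, chromosome 3, 142620602 to 142638008, plus strand) had 0, 0 and 2 counts in type I trained libraries, against 192, 57 and 483 counts in type I untrained libraries. The type IIb trained libraries had 1, 0 and 28 counts of Gbp2 and none in untrained libraries. Every type I untrained library lay above every type I trained and every type IIb library. The pooled level was 209-fold lower in trained than in untrained type I fibres, with a 95% counting interval of 57.6 to 1729 for the 2 counts in the trained group. Trained type IIb fibres were at least 11.6-fold above untrained ones, and 28 of the 29 counts came from library 3, the one with 181 CPM of endothelial markers.

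Trim30a encodes an interferon-induced TRIM protein that dampens inflammatory signalling in mouse macrophages. Trim30a (ENSMUSG00000030921, chromosome 7, 104409025 to 104465193, minus strand) had 2, 1 and 1 counts in type I trained libraries, against 83, 1 and 157 counts in type I untrained libraries. Type IIb trained libraries had 0, 2304 and 4 counts, and type IIb untrained libraries had 0. A single library, type IIb trained library 2, held 99.9% of the summed CPM of its group and 97.7% of that of all 12 libraries, at 420 CPM. That library had no count of B2m, H2-T23, Gbp2 or Irf1. The pooled fold of at least 923 between trained and untrained type IIb fibres is that of this library. Without it the fitted log2 difference between trained and untrained type IIb fibres was 4.21, against 13.93 with it, and the difference between type I and type IIb fibres of trained mice was -0.16, against -9.98 with it. In type I fibres Trim30a was 34.4-fold lower in trained than in untrained libraries, with type I untrained library 2, at 1 count, inside the range of the trained libraries.

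The order of the 4 groups by mean level differed between genes. Type IIb trained libraries were highest for H2-T23, at 29.4 ± 41.1 CPM, and for Trim30a, at 140 ± 242 CPM (SD, n = 3 each), both with an SD above the mean, so that they did not differ beyond the spread from the groups below. Type I untrained libraries were highest for the other 5 genes. For H2-K1 the type IIb trained mean of 65.3 ± 12.0 CPM stood beside 68.5 ± 62.2 CPM in type I untrained libraries, and for H2-D1 and Irf1 the means of 36.3 ± 31.5 and 12.1 ± 13.7 CPM stood beside 75.8 ± 45.3 and 27.7 ± 23.5 CPM, all within 1 SD of the higher group. The B2m mean of 70.9 ± 14.2 CPM in type I trained libraries was also within 1 SD of the 177 ± 146 CPM of type I untrained libraries. Gbp2 was the exception, with 0.717 ± 1.13 CPM in type IIb trained libraries, all below the type I untrained libraries at 9.48 ± 4.71 CPM. Type IIb untrained libraries had the lowest mean in all 7 genes, for B2m by little, since type IIb trained libraries averaged 44.9 ± 39.8 CPM and type IIb untrained libraries 44.7 ± 47.1 CPM. H2-T23, Gbp2, Trim30a and Irf1 had no count in type IIb untrained libraries, which allows up to 3 counts, or 0.12 to 0.374 CPM of a library total over the 12 libraries.

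Libraries of 1 group differed widely. Type I trained libraries 1, 2 and 3 had at least 10 counts of 2, 2 and 4 of the 7 genes, against 7, 4 and 7 in type I untrained libraries. Type IIb trained libraries had at least 10 counts of 4, 3 and 6 genes, against 1, 2 and 2 in type IIb untrained libraries. The 7 genes summed to 88.3, 77.0 and 129 CPM of the library total in type I trained libraries, against 590, 73.2 and 964 CPM in type I untrained libraries, so untrained library 2 lay below every trained library. Among type IIb libraries the sum was 188, 374 and 189 CPM in trained fibres, against 89.2, 40.0 and 16.9 CPM in untrained fibres. These sums did not overlap, but most of the 374 CPM was Trim30a, with 2304 counts beside 391 of H2-K1 and 307 of H2-D1. Without Trim30a the sum of trained library 2 was below that of untrained library 1.

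The set did not move as a block. Over the 12 libraries, Pearson's r between log2(CPM + 1) values was 0.802 for H2-T23 with Irf1, 0.794 for H2-D1 with Gbp2 and 0.754 for Gbp2 with Irf1, whereas it was -0.012 for B2m with H2-K1 and 0.029 for B2m with H2-D1. These values are descriptions over libraries that share 4 groups and differ in depth. Among 11740 other genes, those most like the mean of the 7 were Prpf40b with r = 0.905, Mmd with 0.893, Adamts9 with 0.887, Lrch1 with 0.886 and Arpc1b with 0.885. Each of these 5 was highest in type I untrained library 1 or 3, as B2m, H2-K1, H2-D1, Gbp2 and Irf1 were.

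**Figure D2:**
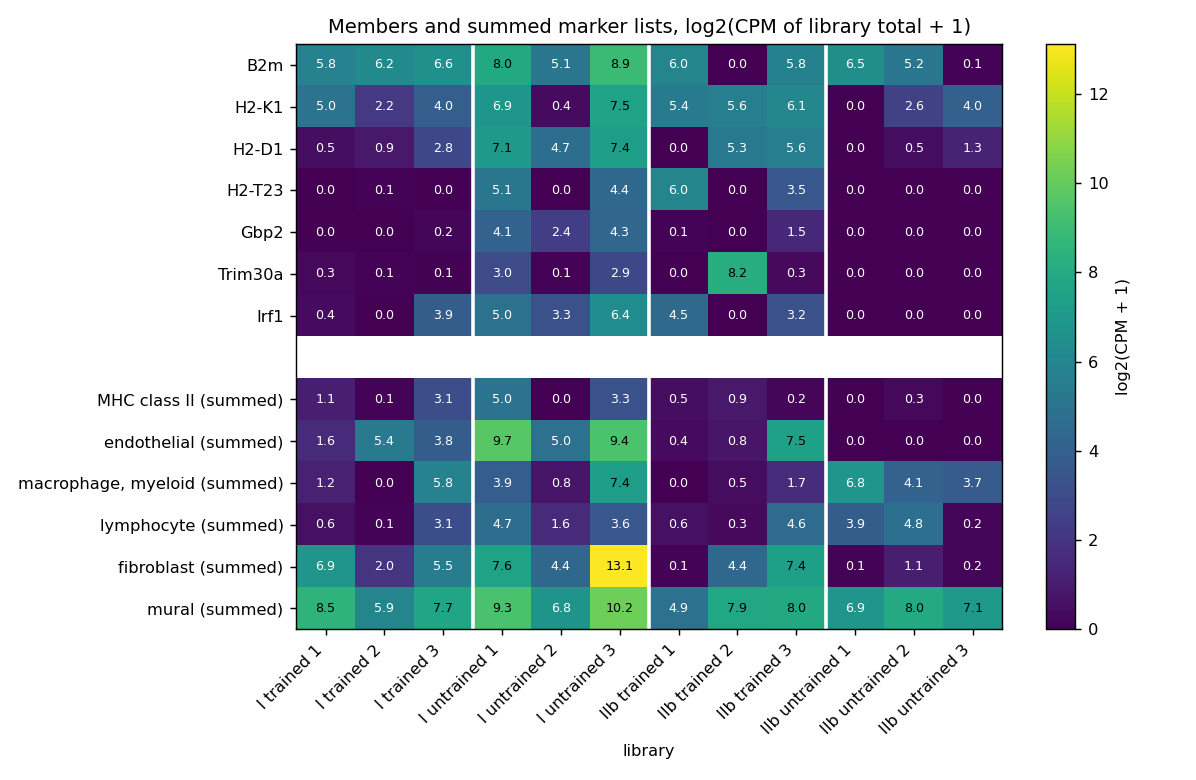
The 7 genes and the summed markers of other cell types in each library, as log2(CPM of the library total + 1), with trained left of untrained and type I left of type IIb. Type I untrained libraries 1 and 3 are high in both the 7 genes and the endothelial, fibroblast and mural markers, and the type IIb untrained libraries have endothelial markers at 0.

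Training in type I fibres was compared first, in an edgeR quasi-likelihood fit of all 12 libraries over 11747 genes, of which the 7 genes all passed the expression filter. At an adjusted p under 0.05 by the Benjamini-Hochberg method, edgeR called 0 of the 7 genes and 0.0% of all genes. At an unadjusted p under 0.05, edgeR counted 3 of the 7 beside 2.94% of all genes, and DESeq2 and limma-voom called 0 of the 7 after adjustment beside 0.502% and 0.0766%. The fitted log2 difference, trained minus untrained, was below 0 in all 7 genes with a median of -4.47, beside a median of -0.28 over all genes. Trained libraries lay wholly below untrained ones in 2 of 7 genes, H2-D1 and Gbp2, beside 8.93% of all genes.

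The higher untrained levels came from type I untrained libraries 1 and 3 for 4 of the 7 genes, and these libraries had 841 and 667 CPM of endothelial markers. They also had 648 and 1199 CPM of mural markers, 187 and 8876 CPM of fibroblast markers, 14.2 and 163 CPM of macrophage and myeloid markers, and 51.2 and 227 CPM of satellite cell markers. Erythroid markers stood at 1616 CPM in untrained library 1, against at most 90.2 CPM in the other 11 libraries. Leaving out those libraries and type IIb trained library 3, the 3 highest in endothelial markers, left 1 untrained type I library, which is then assumed to vary like the other groups. The fitted log2 difference between trained and untrained type I fibres was then 1.15 for B2m and 5.77 for H2-K1. Both had the opposite sign to that with all libraries, and H2-K1 had 4 counts in untrained library 2. The difference was -3.68 for H2-D1, -6.42 for Gbp2 and -1.42 for Irf1, the same sign as with all libraries. For H2-T23 and Trim30a the fitted 2.04 and 0.75 also had the opposite sign, but were not detectable at this depth. H2-T23 had 0, 1 and 0 counts in trained libraries against 0 in untrained library 2, and Trim30a had 2, 1 and 1 against 1. The part of RNA of other cells in these differences was not tested.

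In type IIb fibres the trained minus untrained log2 difference was above 0 in all 7 genes, with B2m at 0.01. The median was 5.65 where the 4 genes without a count in untrained fibres are set at their bound, and 6.36 as fitted, beside 0.40 and 0.36 over all genes. edgeR called 0 of the 7 and 0.0% of all genes after adjustment, and counted 5 of the 7 and 8.21% at an unadjusted p under 0.05. DESeq2 called H2-D1, H2-T23 and Irf1 after adjustment, beside 3.1% of all genes, and limma-voom called 0 beside 0.017%. Libraries of the 2 groups did not overlap in 1 of 7 genes, H2-K1, which was higher in trained fibres, beside 2.82% of all genes. Without the 3 libraries highest in endothelial markers the log2 difference of H2-K1 was 2.95, against 3.10 with all libraries, and with each library left out in turn it ranged over 2.52 to 4.50. That of H2-D1 was 5.16 without them, against 5.65. That of Gbp2 was 2.81, against 6.36, but it then rested on 1 count, in type IIb trained library 1, and was not detectable at this depth. B2m changed sign with the scaling, at 0.01 with TMM, -0.05 with the size factors of relative log expression (RLE) and -0.10 with library totals.

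**Figure D3:**
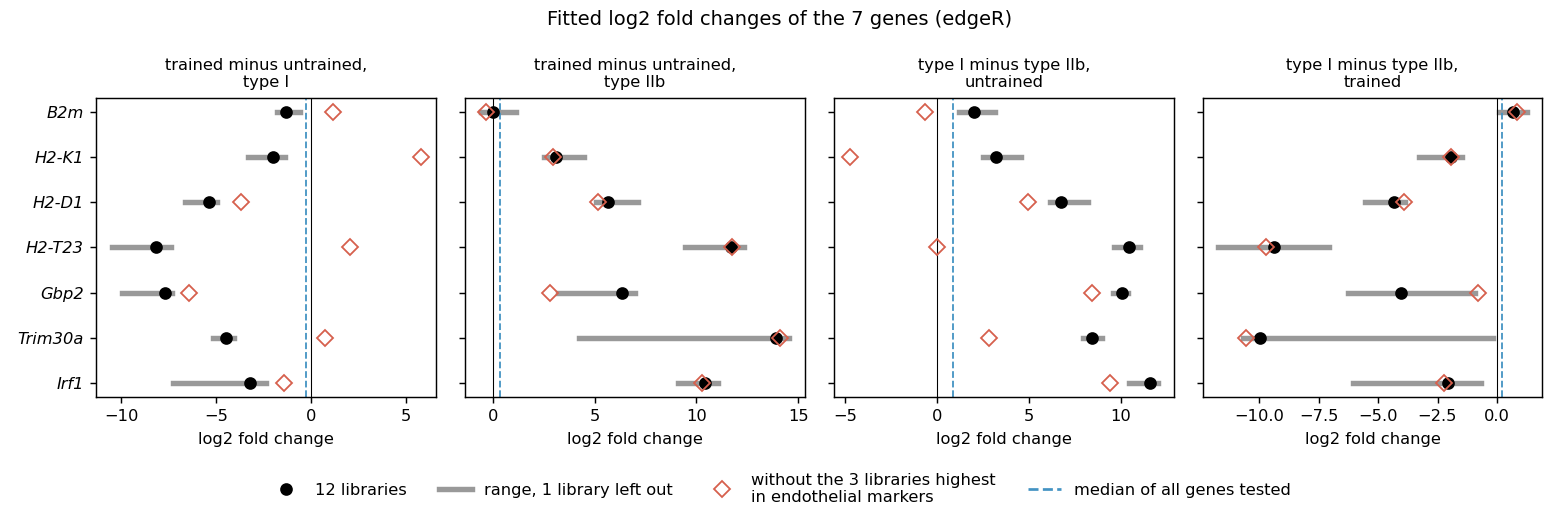
Fitted edgeR log2 differences of the 7 genes in 4 comparisons, with all 12 libraries (black), the range with 1 library left out (grey) and the value without the 3 libraries highest in endothelial markers (open diamonds). The dashed line is the median of all genes tested. Values of genes at 0 in a group depend on the prior count of the fit and are not bounds. B2m, H2-K1, H2-T23 and Trim30a cross 0 in type I fibres without those 3 libraries. H2-T23 and Trim30a then had at most 2 counts in any type I library left.

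Between fibre types of untrained mice, all 7 genes had type I minus type IIb differences above 0. The median log2 difference was 6.71 with the 4 genes at 0 in type IIb fibres at their bound, and 8.42 as fitted, beside 0.85 over all genes either way. H2-D1, Gbp2, Trim30a and Irf1 had every type I library above every type IIb library, 4 of 7 genes beside 22.8% of all genes. For Trim30a this rests on the 1 count of type I untrained library 2 against 0 in type IIb untrained libraries, a difference that is not detectable at this depth. edgeR called none of the 7 and 0.46% of all genes after adjustment, with 5 of the 7 and 17.5% at an unadjusted p under 0.05. DESeq2 called H2-D1, H2-T23, Gbp2 and Irf1 beside 8.78% of all genes, and limma-voom called H2-D1, Gbp2 and Irf1 beside 16.2%. Without the 3 libraries highest in endothelial markers, type I untrained library 2 alone was left of its group. The log2 difference was then -0.65 for B2m and -4.78 for H2-K1, against 1.99 and 3.17 with all libraries. It was 4.94 for H2-D1, against 6.71. H2-T23 had no count in any library then compared, so its fitted 0.0, against 10.45 with all libraries, is not a measured value. All 13 endothelial markers were at 0 in the type IIb group of this comparison.

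Between fibre types of trained mice the order was turned for 6 of 7 genes, with type I below type IIb and B2m 1.28-fold above. The median log2 difference was -4.04, the value of Gbp2, beside 0.21 over all genes. Gbp2 had 2 counts in type I fibres against 29 in type IIb fibres. Of those 29, 28 were in type IIb trained library 3, which had 181 CPM of endothelial markers. For Trim30a the log2 difference was -9.98, and -0.16 without type IIb trained library 2. H2-K1 alone had no overlap, with type I below type IIb, beside 3.77% of all genes. edgeR called none of the 7 after adjustment, beside 0.536% of all genes, and counted 2 of the 7 and 8.03% at an unadjusted p under 0.05. DESeq2 called H2-T23, beside 2.95%, and limma-voom called 0, beside 1.23%. For Irf1 the log2 difference of -2.05 was 0.02 in the limma-voom fit with quality weights. For B2m the log2 difference was 0.66 in edgeR and 6.41 in that limma-voom fit.

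The difference between the training effects of the fibre types was tested as an interaction term in the same fit. All 7 genes had a fitted value below 0, as follows from effects below 0 in type I and above 0 in type IIb fibres. edgeR called none of the 7 and 0.0% of all genes after adjustment, and 5 of the 7 and 8.94% at an unadjusted p under 0.05. DESeq2 called H2-D1, H2-T23, Gbp2 and Irf1, beside 3.32% of all genes, and limma-voom called 0, beside 0.0255%. The comparisons within a fibre type and those within a training state share libraries, so their values are given side by side and not as separate evidence.

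Other genes of the pathways were described from 7 lists of 125 genes, of which 62 passed the filter. edgeR called none of the 62 after adjustment in any of the 5 comparisons. At an unadjusted p under 0.05 it counted 0 higher and 9 lower with training in type I fibres, beside 0.409% and 2.53% of all genes. With training in type IIb fibres the counts were 9 higher and 1 lower, beside 6.87% and 1.35%. For type I minus type IIb they were 17 higher and 0 lower in untrained mice, beside 15.5% and 1.94%, and 1 higher and 3 lower in trained mice, beside 5.07% and 2.95%. The interaction gave 0 higher and 13 lower, beside 0.962% and 7.98%. DESeq2 called 2, 7, 8, 3 and 8 of the 62 after adjustment in those 5 comparisons, beside 0.502%, 3.1%, 8.78%, 2.95% and 3.32% of all genes. For limma-voom the counts were 0, 0, 15, 0 and 0, beside 0.0766%, 0.017%, 16.2%, 1.23% and 0.0255%. The fitted difference was below 0 in 50 of the 62 with training in type I fibres, beside 6731 of all 11747 genes. With training in type IIb fibres it was above 0 in 40 of the 62, beside 6810 of all 11747 genes. The medians were -1.27 and 1.43 beside -0.28 and 0.36 over all genes.

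Of the peptide processing and loading genes 14 of 17 were tested. Psme1, a subunit of the interferon-induced proteasome activator PA28, had 227, 176 and 68.4 CPM in type IIb trained libraries, against 0.434, 29.1 and 38.2 CPM in type IIb untrained libraries, without overlap (adjusted p = 0.597, edgeR's quasi-likelihood test). In type I fibres it had 19.8, 64.7 and 18.3 CPM in trained libraries, against 49.7, 28.2 and 33.5 CPM in untrained libraries, and the groups overlapped. Canx, the chaperone calnexin that folds new heavy chains, had 207, 204 and 363 CPM in type I trained libraries, against 165, 95.6 and 312 CPM in type I untrained libraries. Calr, calreticulin of the peptide-loading complex, had 55.2, 108 and 71.8 CPM in type IIb trained libraries, against 20.4, 65.5 and 21.7 CPM in type IIb untrained libraries. Canx and Calr overlapped between trained and untrained libraries of each fibre type. The median log2 difference of the list was -1.31 with training in type I and 0.99 in type IIb fibres.

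Of the interferon receptors and signalling genes 16 of 19 were tested, and 17 of 19 had a count in type IIb untrained libraries, where Irf1 had none. Jak1, the kinase of type I and type II interferon receptors, had 88.0, 177 and 184 CPM in type IIb trained libraries, against 164, 177 and 115 CPM in type IIb untrained libraries. In type I fibres it had 16.0, 56.5 and 101 CPM in trained libraries, against 59.0, 91.1 and 114 CPM in untrained libraries. Ifngr2, a chain of the interferon-gamma receptor, had 106, 0.546 and 48.7 CPM in type IIb trained libraries, against 1.30, 124 and 33.9 CPM in type IIb untrained libraries. Ptpn2, a phosphatase that acts on JAK kinases, had 263, 87.4 and 23.7 CPM in type IIb trained libraries, against 0, 32.2 and 59.1 CPM in type IIb untrained libraries. All 3 genes overlapped between trained and untrained libraries, and the median log2 difference of the list was -0.69 with training in type I and 0.52 in type IIb fibres.

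Type I interferon-stimulated genes, with 14 of 37 tested, included Ifitm3, a membrane protein that restricts virus entry. Ifitm3 had 0, 2.71 and 9.26 CPM in type I trained libraries, against 78.9, 4.31 and 228 CPM in type I untrained libraries. It had 0, 0 and 39.0 CPM in type IIb trained libraries and no count in type IIb untrained libraries, so that it was highest in the 3 libraries with the most endothelial markers. In untrained mice type I libraries lay wholly above type IIb ones, with an adjusted p of 0.23 in edgeR's quasi-likelihood test, and DESeq2 called it in that comparison. Ifi27, an interferon-induced protein, had 27.1, 32.7 and 15.2 CPM in type I trained libraries, against 30.2, 48.8 and 59.9 CPM in type I untrained libraries. Dtx3l, a ubiquitin ligase partner of Parp9, was at 281 CPM in type I trained library 1 and at 0 to 30.3 CPM in the other 11 libraries. The median of this list in untrained mice, type I minus type IIb, was 4.92 with genes at 0 at their bound and 6.31 as fitted.

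Interferon-induced GTPases other than Gbp2 were tested for 9 of 17 genes. Iigp1, a GTPase that attacks the vacuoles of intracellular parasites, had 0.124, 12.3 and 20.1 CPM in type I trained libraries, against 26.1, 74.5 and 32.0 CPM in type I untrained libraries, without overlap (adjusted p = 1 in edgeR's test). It had 0, 0 and 8.37 CPM in type IIb trained libraries and no count in untrained ones. Iigp1 was highest in type I untrained library 2, the lowest of its group for each of the 7 genes, which had 30.1 CPM of endothelial markers. Gbp6 had 10.8, 37.7 and 10.7 CPM in type I trained libraries, against 19.7, 25.8 and 13.3 CPM in type I untrained libraries, and it was at 0 in every type IIb library apart from trained library 3 with 10.0 CPM. Gbp7, by contrast, had 7.76, 80.1 and 17.8 CPM in type IIb trained libraries, against 0, 18.5 and 13.5 CPM in type IIb untrained libraries.

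Other class I and class I-like genes had 6 of 17 tested. Hfe, which controls iron uptake, had 0.373, 12.6 and 15.7 CPM in type I trained libraries, against 33.3, 23.5 and 26.8 CPM in type I untrained libraries, without overlap (adjusted p = 1 in edgeR's test). Fcgrt, the neonatal Fc receptor chain, had 0, 0 and 7.87 CPM in type IIb trained libraries, against 1.30, 19.3 and 61.1 CPM in type IIb untrained libraries. Mr1, which presents vitamin metabolites, had 14.4, 0 and 6.01 CPM in type I trained libraries, against 25.1, 12.0 and 21.0 CPM in type I untrained libraries. The products of Hfe, Fcgrt and Mr1 pair with beta-2-microglobulin, and unlike H2-D1 the 3 genes were not higher in trained than in untrained type IIb fibres in the fit, at log2 differences of -1.07, -3.36 and -1.85.

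Of 8 Trim30 relatives 2 were tested, Trim12a and Trim12c, and neither came near the 420 CPM of Trim30a in type IIb trained library 2. Trim12a was nonetheless highest in that library, at 7.10 CPM. Trim12a had 0.646, 7.10 and 5.13 CPM in type IIb trained libraries, against 0.325, 1.21 and 0.461 CPM in type IIb untrained libraries, and Trim12c stayed at or under 3.45 CPM in all 12. Trim30d, the gene that mainly holds the 6.53% of 50-base windows that Trim30a shares, had no count in type IIb trained library 2. Class II genes, which mark antigen-presenting cells, summed to 1.14, 0.099 and 7.62 CPM in type I trained libraries, against 31.1, 0 and 8.84 CPM in type I untrained libraries, and to at most 0.872 CPM in any type IIb library. H2-Ab1 was the 1 of 10 that was tested. H2-Ab1 had 0, 0 and 0.846 CPM in type I trained libraries, against 10.8, 0 and 3.11 CPM in type I untrained libraries, and it did not pass 0.182 CPM in any type IIb library. H2-Eb1 and Cd74 were at most 7.98 and 2.68 CPM, in type I untrained libraries 1 and 3.

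**Figure D4:**
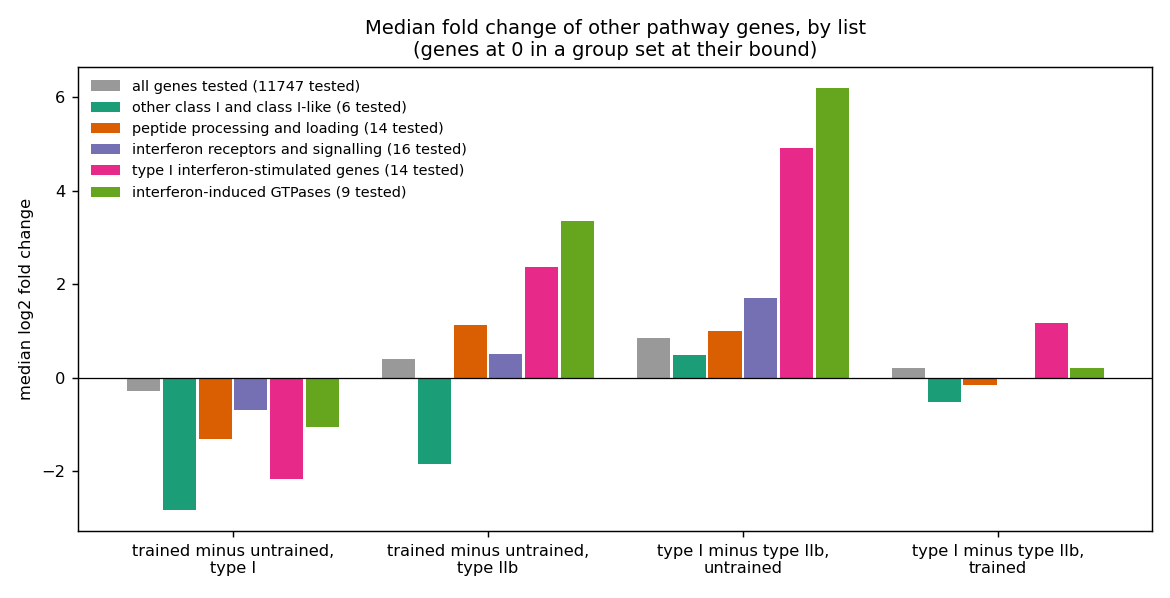
Median log2 difference of 5 lists of other pathway genes and of all genes tested, in 4 comparisons, with genes at 0 in a group set at their bound of 3 counts over the group and genes at or under 3 counts in both groups left out. Bars show medians of the genes that passed the filter, with their number in the legend. The GTPases and interferon-stimulated genes have the highest bars in untrained mice, type I minus type IIb, at 6.20 for the GTPases and 4.92 for the interferon-stimulated genes.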

How the data were processed

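Whole-number read counts per gene and FPKM values were deposited by the authors for 12 libraries, with TopHat2 and the mouse build mm10 named per the submitters' processing notes. Which counting program, annotation and filters were used is unknown here. The deposited FPKM were count over gene length and library total, within a tolerance of 0.1%, in 94.5% of nonzero entries. The SMART-Seq HT and Nextera XT kits, per the labels' protocols, do not mark strand, and reads carry no molecular identifiers, so intervals cover counting error only. The 7 genes, the pathway and marker lists, the motifs and the rule for named genes were chosen with earlier results of these data known.

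Counts were tested with edgeR 4.0.16 (TMM, robust quasi-likelihood fit, R 4.3.3), 1 fit of 12 libraries with a mean per group, for 11747 genes passing edgeR filter settings of 10 (count) and 15 (total), with Benjamini-Hochberg adjusted p under 0.05. DESeq2 1.42.0, limma 3.58.1 (voom with quality weights, and trend fits of log2(FPKM + 1) and log2(FPKM + 0.1) of the deposited FPKM), other scalings and left-out libraries were alternatives. Levels are CPM on TMM-scaled library sizes, and marker sums are CPM of library totals. Folds are pooled counts over pooled library sizes, with 3 counts over a group at 0 and 95% exact intervals for 1 to 3 counts. Deeper libraries thus weigh more in a pooled fold. Named were the 7 genes, the 3 genes of highest mean CPM in each list, and the 5 genes most like the mean of the 7. Annotation is GENCODE M21 and promoters are RefSeq, GRCm38.p6. Other per-sample columns numbered 0.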

Additional observations from a re-analysis of the deposited data

How the results depend on the processing

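The count of pathway genes called was 0 in all 5 comparisons and in every fit with 1 library left out (0 to 0), and also with other size factors, with library totals, with only the groups compared, without the 3 libraries highest in endothelial markers and without the 2 with the fewest genes. Numbers 1 to 3 do not pair libraries in the labels. Deviations from group means had r of -0.045 to 0.177 between same-numbered libraries, beside -0.166 to 0.189 between libraries of different numbers. With the replicate block the count stayed 0 in each comparison. DESeq2 called 2 with training in type I and 7 in type IIb, beside 0.502% and 3.1% of all genes. It called 8 between fibre types of untrained and 3 of trained mice, and 8 for the interaction, beside 8.78%, 2.95% and 3.32%. For the fibre types of untrained mice, limma-voom called 15, beside 16.2% of all genes. There FPKM called 2 with a pseudocount of 1 and 2 with a pseudocount of 0.1. The fit without an expression filter called 1, Ifitm3, as it did for the interaction (1). Shares of all genes in the FPKM and unfiltered fits are not given here. The cause of these differences was not tested.

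Of 822 recomputed fold changes of the 7 genes 796 kept their sign. Of the 26 others, 10 arose without the 3 libraries highest in endothelial markers. Among those 10, H2-T23 and Trim30a with training in type I fibres had at most 2 counts in any type I library left. H2-T23 between untrained fibre types had no count left. The other 16 were under other settings, 15 of them B2m with training in type IIb fibres. Scaling by RLE moved the median log2 difference of all genes by up to -0.33, and library totals by up to 0.62. The fit of only the groups compared gives no interaction. A library with 3 counts lies at 0.12 to 0.374 CPM, and differences below that were not detectable at this depth.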

Other observations

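Gbp2 followed a handful of genes closely over the 12 libraries. Chosen after the values were seen, the genes with the highest Pearson r to its log2(CPM + 1) were Ifi203, an interferon-inducible gene, with r = 0.991, Col15a1, a basement membrane collagen, with 0.99, Apold1, an endothelial gene, with 0.986, Mmrn2, a gene of the endothelial matrix, with 0.985, and Snx33 with 0.983. Trim30a was closest to Pik3c2a with r = 0.991, both given as descriptions over 12 libraries in which 1 library held nearly all Trim30a.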
